A study of Mus musculus with 31 samples.

Results

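This section describes the transcripts of 10 enzymes of aerobic glycolysis in the mouse retina: the hexokinases Hk1 and Hk2, the phosphofructokinases Pfkl and Pfkp, the aldolases Aldoa and Aldoc, the enolase Eno2, the pyruvate kinase Pkm, and the lactate dehydrogenases Ldha and Ldhb. They were taken by symbol from a list of glycolytic and lactate enzymes, a choice made with earlier results of these data known. All 10 were measured, among 18193 genes in all. The values came from Affymetrix arrays hybridised with total RNA of 31 mice, the 2 retinas of 1 mouse making 1 sample. Wild-type mice (+/+) and mice without a working gene for the nuclear receptor RORb (Rorb-/-) were each studied with and without CrxpNrl, a transgene that drives the rod transcription factor NRL from the promoter of the photoreceptor gene Crx. Retinas were collected on postnatal days 14 (P14) and 28 (P28). Each of the 8 groups of age and genotype held 4 mice, except P28 +/+;CrxpNrl with 3, and every Rorb-/- mouse lacked the receptor in all cells, with or without the transgene. The labels give neither sex nor strain.

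Photoreceptors are known for aerobic glycolysis: they turn most of their glucose into lactate although oxygen is present, and use the pathway both for energy and for building the membranes of the outer segment, which is renewed every day. Hexokinase traps glucose in the cell, phosphofructokinase commits it to the pathway, aldolase splits the sugar, enolase and pyruvate kinase end the path to pyruvate, and lactate dehydrogenase turns pyruvate into lactate or back. Rods make up most mouse photoreceptors, and NRL sets the rod fate, so photoreceptor precursors without it become cones.

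Rorb was lower in every Rorb-/- mouse than in every mouse with the gene, with log2 signals of 8.15 to 9.98 against 10.23 to 11.18. Nrl, which the transgene drives, was 8.70 to 10.55 in Rorb-/- and 12.89 to 13.37 in all mice with Rorb, and the transgene moved it by -0.11 at P14 and -0.04 at P28 in +/+, neither called. In Rorb-/-;CrxpNrl Nrl was 11.29 to 12.28 at P14, above every Rorb-/- mouse, and 11.63, 11.86, 9.39 and 10.44 in P28 replicates 1 to 4, of which replicate 3 lay within the P28 Rorb-/- range of 8.70 to 9.97. Retinas without the receptor and without the transgene were poor in rod transcripts and rich in cone transcripts. The mean log2 signal of 12 measured rod markers was 8.83 to 10.18 in P14 Rorb-/- and 9.62 to 10.08 in P28 Rorb-/-, against 12.20 to 12.70 in all +/+ and +/+;CrxpNrl mice. The mean of 11 cone markers was 10.94 to 11.39 in Rorb-/- and 9.14 to 9.54 in +/+. It was 5.87 to 7.35 in +/+;CrxpNrl, and 7.38 to 8.43 in Rorb-/-;CrxpNrl. Rorb-/-;CrxpNrl mice had rod means of 10.89 to 11.61 at P14 and of 9.35 to 11.63 at P28. In this P28 group replicates 3 and 4 stood apart from 1 and 2: the rod mean was 11.63, 11.32, 9.35 and 9.93 in replicates 1 to 4, and Crx was 11.52, 11.58, 10.28 and 10.54. Called differences that rest on this group are followed by their values without those 2 mice where these end the call or change the size by over 1.5 times. "Rod-poor" is used below for Rorb-/- without the transgene, and "rod-rich" for the equally weighted mean of +/+ and +/+;CrxpNrl.

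Several of the enzymes were lower in rod-poor retinas, more of them at P14 than at P28, and by less than 2-fold each. At P14, 6 of 10 fell, namely Hk1, Pfkl, Pfkp, Aldoa, Pkm and Ldhb, and none rose, by limma over all genes with Benjamini-Hochberg adjusted p under 0.05. Across all genes 16.6% were called lower in this comparison. At P28, 4 of 10 fell, namely Hk1, Pfkl, Pfkp and Pkm, and none rose, against 17% of all genes, and with 1 mouse left out the P28 count was 2 to 5. The median log2 difference of the 10 was -0.38 at P14 and -0.16 at P28, beside -0.01 and -0.02 for all genes. At P14 all rod-poor mice lay below all rod-rich mice in 5 enzymes (11.3% of all genes), and at P28 in 3 (11.6% of all genes). In whole retinas, fewer cells of a type and less RNA per cell cannot be told apart. All rod-poor mice lacked RORb and all rod-rich mice had it. Few rods and the missing receptor therefore cannot be told apart in this contrast either.

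**Figure D1:**
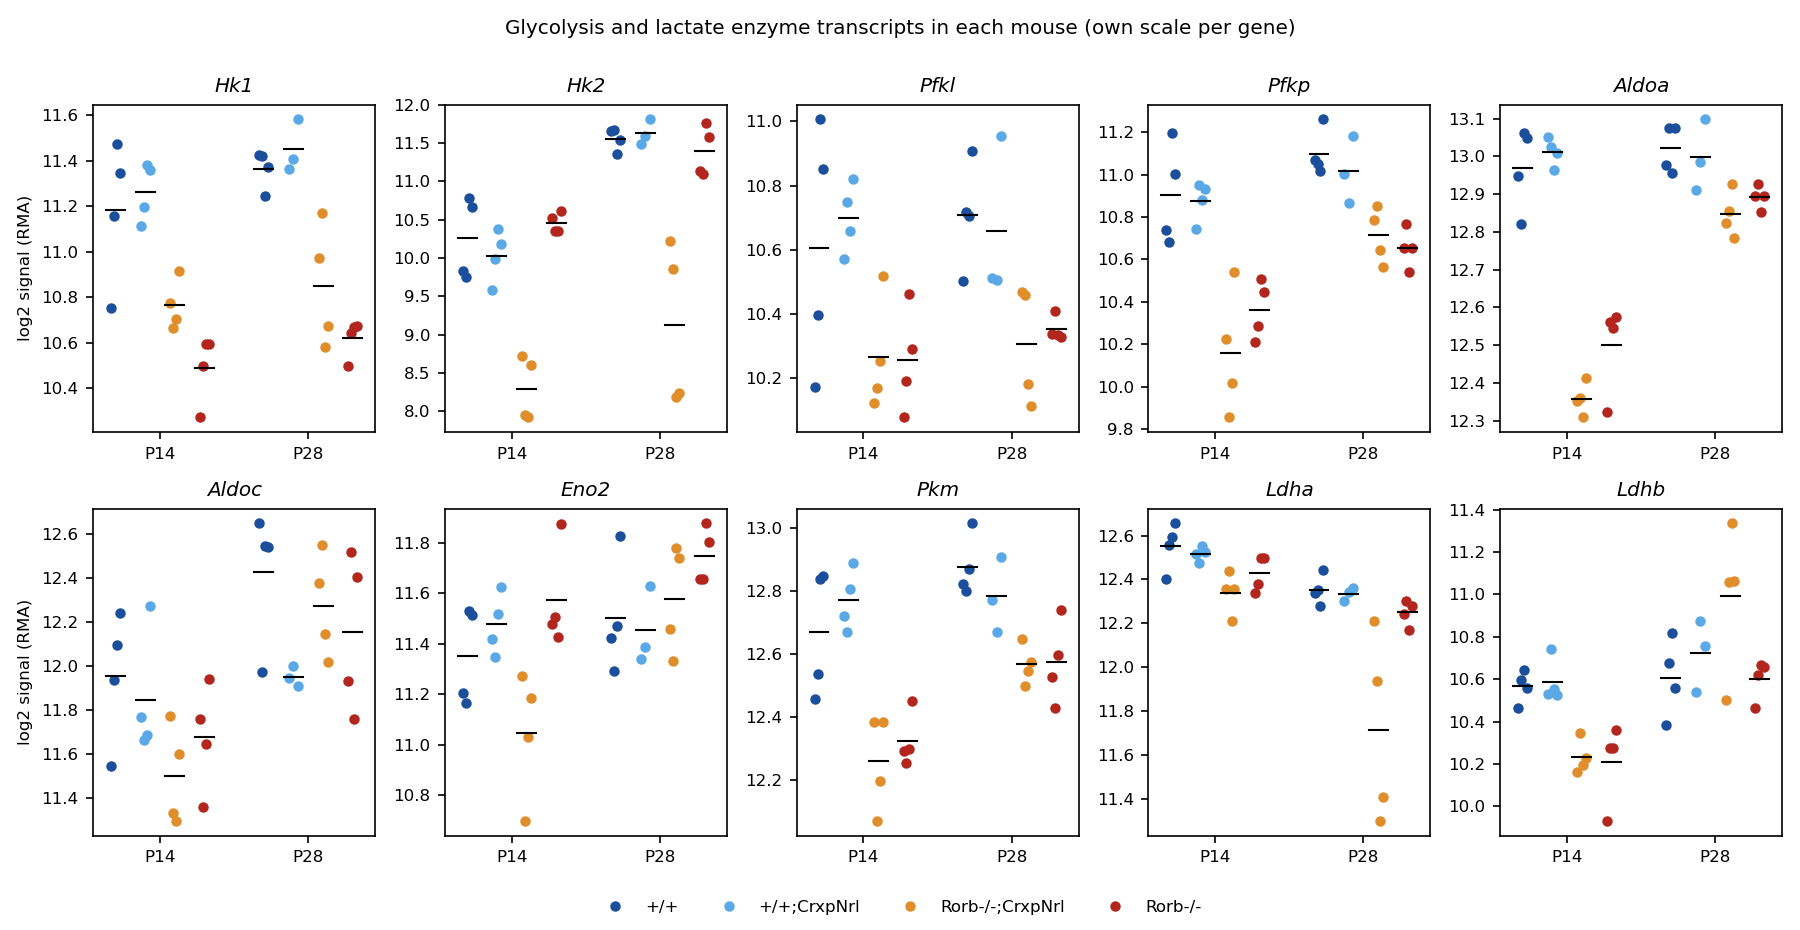
Log2 array signal (RMA, vertical axis, own scale for each gene) of the 10 enzymes in each mouse, by age and genotype; points are mice and bars are group means (4 mice, or 3 in P28 +/+;CrxpNrl). Hk1, Pfkp, Aldoa and Pkm are low in both Rorb-/- genotypes at P14, while Hk2 is low in Rorb-/-;CrxpNrl mice alone.

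**Figure D2:**
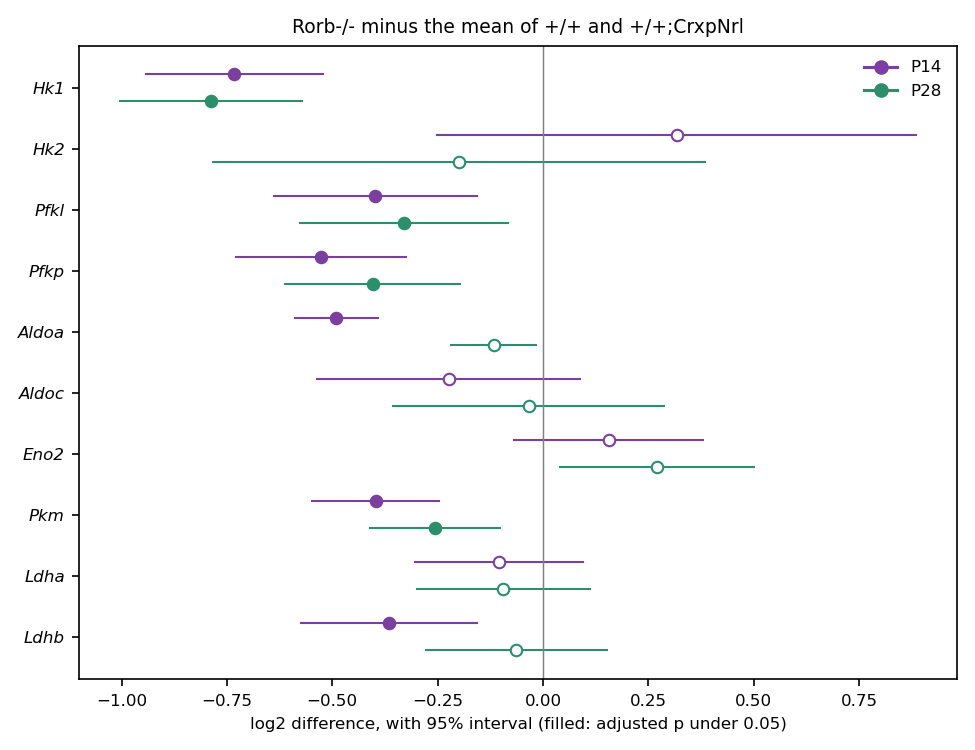
Log2 difference between rod-poor (Rorb-/-) and rod-rich (mean of +/+ and +/+;CrxpNrl) retinas for each enzyme at P14 and P28, with 95% intervals; filled points have an adjusted p under 0.05. Hk1 has the largest fall at both ages, and Aldoa falls at P14 by 0.49 and differs by -0.12 at P28.

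Other cell markers moved with this comparison. Of 10 amacrine markers 9 were lower at both ages, and their mean was 7.37 to 7.62 in rod-poor against 9.32 to 9.69 in rod-rich mice. All 5 horizontal cell markers measured were lower at both ages, and 10 of 10 microglial markers were higher at P14 and 9 at P28, with microglial means of 6.61 to 7.47 against 5.69 to 6.39. Pigment epithelium markers were lower at P14 in 8 of 10 genes, with a mean of 5.54 to 6.003 against 6.74 to 7.96, and none was lower at P28. The mean of 9 ganglion cell markers was 8.39 to 9.12 against 9.33 to 9.55 at P14, and 8.72 to 9.05 against 9.04 to 9.28 at P28. Blood vessel means were 6.75 to 7.27 against 7.50 to 7.81 at P14 and overlapped at P28. Lens means varied widely within groups, from 4.49 to 11.29 in P28 Rorb-/- and from 6.15 to 10.92 in P28 +/+. Glial and bipolar markers were higher: 2 of 4 astrocyte markers at P14 and 4 at P28 (means of 7.64 to 7.90 against 6.42 to 7.33), 5 and 6 of 10 Müller glia markers (10.11 to 10.50 against 9.86 to 10.10, with 2 and 1 lower), and 5 and 6 of 8 bipolar markers (9.90 to 10.20 against 9.46 to 9.81, with 2 lower at P28). Their part in the enzyme differences was not tested.

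Hk1, the hexokinase bound to mitochondria in neurons, had the largest fall of the 10 at both ages. At P14 its log2 signal was 10.75, 11.16, 11.47 and 11.35 in the +/+ mice, 11.11, 11.20, 11.38 and 11.36 in +/+;CrxpNrl, and 10.27, 10.50, 10.59 and 10.60 in Rorb-/-. At P28 it was 11.43, 11.42, 11.24 and 11.37 in +/+, 11.36, 11.41 and 11.58 in +/+;CrxpNrl, and 10.50, 10.64, 10.67 and 10.67 in Rorb-/-. Every rod-poor mouse lay below every rod-rich mouse at both ages. The difference was -0.73 ± 0.10 (SE) at P14, a 1.66-fold lower signal (limma adjusted p = 1.45e-06), and -0.79 ± 0.11 at P28, 1.73-fold lower (limma adjusted p = 6.75e-07). In order of group means Hk1 ran from P14 Rorb-/- (10.49) through P28 Rorb-/- (10.62), P14 and P28 Rorb-/-;CrxpNrl (10.77 and 10.85) to the 4 rod-rich groups (11.18 to 11.45), and each group overlapped the next. The other probe set of Hk1 differed by -0.78 ± 0.15 at P14.

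Hk2, the hexokinase that insulin and hypoxia induce in other tissues and that rods use in the adult retina, did not follow the rod contrast. At P14 its log2 signal was 9.82, 9.75, 10.78 and 10.66 in +/+, 9.58, 9.98, 10.37 and 10.18 in +/+;CrxpNrl, and 10.52, 10.35, 10.35 and 10.62 in Rorb-/-. At P28 it was 11.65, 11.67, 11.35 and 11.54 in +/+, 11.48, 11.59 and 11.81 in +/+;CrxpNrl, and 11.13, 11.09, 11.76 and 11.58 in Rorb-/-. The mice overlapped at both ages. The difference was 0.32 at P14, with a 95% interval of -0.25 to 0.89, and -0.20 at P28, with an interval of -0.79 to 0.39, and was not called at either age. Counting Rorb-/-;CrxpNrl as rod-rich too made the P14 difference of Hk2 0.93 (limma adjusted p = 0.00808); that group had the lowest mean Hk2 of its age.

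The windows before the start sites of 4 enzymes are shown because these enzymes had the largest differences below: Hk1 and Pfkp in the rod contrast, Hk2 and Ldha with the transgene. They are the 250 bases before the start, 5′ to 3′ on the gene's strand, from RefSeq on GRCm38.p6. Capitals mark matches on either strand to TAATCC (bound by CRX), TGCTGA (part of the Maf-type element bound by NRL), TAGGTCA (bound by ROR receptors) or ACGTG (core of the hypoxia response element). Hk1 lies on the minus strand of chromosome 10 and has 2 start sites in the table, the first with chr10:62379909-62380158 before it. Hk2 (chr6:82774455-82774704) and Pfkp (chr13:6648772-6649021) are on the minus strand with 1 start site each. Ldha is on the plus strand with 2, the first with chr7:46845554-46845803 before it.
Hk1: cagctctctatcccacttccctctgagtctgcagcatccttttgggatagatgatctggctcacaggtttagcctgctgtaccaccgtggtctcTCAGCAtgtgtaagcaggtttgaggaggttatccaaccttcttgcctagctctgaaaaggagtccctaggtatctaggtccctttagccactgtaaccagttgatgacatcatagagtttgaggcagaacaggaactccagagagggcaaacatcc
Hk2: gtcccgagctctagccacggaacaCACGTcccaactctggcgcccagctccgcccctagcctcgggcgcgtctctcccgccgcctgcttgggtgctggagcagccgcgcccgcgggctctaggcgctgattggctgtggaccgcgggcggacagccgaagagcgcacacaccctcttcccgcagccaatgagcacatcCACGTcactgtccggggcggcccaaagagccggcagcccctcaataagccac
Pfkp: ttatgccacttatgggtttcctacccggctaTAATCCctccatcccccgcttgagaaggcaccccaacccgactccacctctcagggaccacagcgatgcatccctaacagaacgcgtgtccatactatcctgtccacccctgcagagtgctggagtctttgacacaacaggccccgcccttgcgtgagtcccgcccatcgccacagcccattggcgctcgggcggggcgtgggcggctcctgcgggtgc
Ldha: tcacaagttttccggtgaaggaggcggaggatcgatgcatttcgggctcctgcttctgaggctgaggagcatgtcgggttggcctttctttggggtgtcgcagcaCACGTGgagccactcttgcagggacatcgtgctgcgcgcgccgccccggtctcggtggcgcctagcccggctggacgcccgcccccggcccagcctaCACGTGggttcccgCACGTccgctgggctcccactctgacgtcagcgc

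Counted back from the start, with the last base before it as -1, the Hk1 window held TGCTGA on the other strand at -156, and the Pfkp window held TAATCC at -219. The Hk2 window held ACGTG on the other strand at -226 and -52. In the Ldha window there were 5 matches to ACGTG, of which 4 came as 2 palindromes that match on both strands, at -145 and -48, and 1 stood at -34. Searching all 16 windows of the 10 enzymes, which also include 50 bases after the start, TAATCC was in 3, TGCTGA in 1, TAGGTCA in 0 and ACGTG in 7. Among all 32851 RefSeq windows the shares were 7.06%, 19.5%, 2.61% and 19.6%. Windows 2 and 3 of Aldoa overlap and hold the same ACGTG match, which is counted in both. A match of these letters is not a measured binding site.

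Pfkp, the platelet-type phosphofructokinase that is abundant in brain, fell in rod-poor retinas at both ages. Its log2 signal at P14 was 10.74, 10.68, 11.19 and 11.003 in +/+, 10.74, 10.95, 10.88 and 10.93 in +/+;CrxpNrl, and 10.21, 10.29, 10.51 and 10.45 in Rorb-/-. At P28 it was 11.07, 11.05, 11.02 and 11.26 in +/+, 11.002, 10.87 and 11.18 in +/+;CrxpNrl, and 10.65, 10.77, 10.54 and 10.65 in Rorb-/-. The rod-poor mice lay below all rod-rich mice at both ages, by -0.53 ± 0.10 at P14 (limma adjusted p = 9.06e-05) and -0.40 ± 0.10 at P28 (limma adjusted p = 0.00232). Its 2 other probe sets differed by -1.09 ± 0.23 and -0.32 ± 0.17 at P14.

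Pfkl, the liver-type phosphofructokinase, was lower by 0.40 ± 0.12 at P14 (difference -0.40, limma adjusted p = 0.0088) and by 0.33 ± 0.12 at P28 (difference -0.33, limma adjusted p = 0.0352). At P14 the mice overlapped, since replicate 1 of +/+ was at 10.17 and the Rorb-/- mice at 10.08 to 10.46. At P28 the Rorb-/- mice were at 10.33 to 10.41, below 10.50 to 10.95 in the rod-rich mice. The P28 call was lost when any 1 Rorb-/- mouse, +/+ replicate 4 or +/+;CrxpNrl replicate 3 was left out, with adjusted p-values of 0.0717, 0.0517, 0.0724 and 0.0742 without Rorb-/- replicates 1 to 4, and 0.0668 and 0.114 without the others in that order. Against +/+ alone the P14 adjusted p was 0.0524.

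Aldoa, the aldolase of muscle and most other tissues, fell at P14 and differed less by P28. At P14 its log2 signal was 12.95, 12.82, 13.06 and 13.05 in +/+, 13.05, 13.03, 12.96 and 13.01 in +/+;CrxpNrl, and 12.32, 12.56, 12.55 and 12.57 in Rorb-/-. At P28 it was 12.98, 13.08, 12.96 and 13.07 in +/+, 12.91, 12.98 and 13.10 in +/+;CrxpNrl, and 12.90, 12.93, 12.85 and 12.90 in Rorb-/-. The groups were apart at P14 and overlapped at P28. The difference was -0.49 ± 0.05 at P14 (limma adjusted p = 3.1e-09) and -0.12 ± 0.05 at P28 (limma adjusted p = 0.072). The change of the difference between the ages was 0.37 ± 0.07 (limma interaction, adjusted p = 0.00207), and Aldoa was the 1 of 10 enzymes called in that test, beside 3.88% of all genes. The pigment epithelium markers named above changed between the ages in the same direction, with 8 of 10 called in the same interaction, and their part in the Aldoa result was not tested. The P28 call was gained without +/+;CrxpNrl replicate 1 (adjusted p = 0.0418), and the 4 other probe sets of Aldoa, at -0.17 to -0.25, were each called at P28 (limma adjusted p over probe sets of 0.00382 to 0.039). The interaction was 0.22 and not called with Rorb-/-;CrxpNrl counted as rod-rich (limma adjusted p = 0.146).

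Aldoc, the brain aldolase, is strong in glia. It varied widely within groups, from 11.36 to 11.94 in P14 Rorb-/- and from 11.55 to 12.24 in P14 +/+, and was not called in the rod contrast: -0.22 (95% interval -0.54 to 0.09) at P14 and -0.03 (-0.36 to 0.29) at P28. Eno2, the neuronal enolase, was the enzyme with positive differences at both ages, 0.16 (-0.07 to 0.38) at P14 and 0.27 (0.04 to 0.50) at P28, neither called (limma adjusted p = 0.309 and 0.066). The P28 value of Eno2 was called without +/+ replicate 4 (adjusted p = 0.0219) or without +/+;CrxpNrl replicate 3 (adjusted p = 0.042).

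Pkm, whose gene gives both the M1 and the M2 form of pyruvate kinase, fell at both ages. Its single probe set does not separate the forms. At P14 the log2 signal was 12.46, 12.54, 12.84 and 12.85 in +/+, 12.72, 12.67, 12.81 and 12.89 in +/+;CrxpNrl, and 12.29, 12.25, 12.30 and 12.45 in Rorb-/-. At P28 it was 12.82, 12.80, 12.87 and 13.01 in +/+, 12.77, 12.67 and 12.91 in +/+;CrxpNrl, and 12.53, 12.43, 12.59 and 12.74 in Rorb-/-. The groups were just apart at P14 and overlapped at P28, with differences of -0.40 ± 0.07 (limma adjusted p = 8.51e-05) and -0.26 ± 0.08 (limma adjusted p = 0.00885). Without P28 Rorb-/- replicate 2 the P28 adjusted p was 0.0548.

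The lactate dehydrogenases, which make the M (Ldha) and H (Ldhb) subunits of the enzyme, differed in pattern. At P14 the Ldha signal was 12.40, 12.56, 12.59 and 12.66 with +/+, 12.52, 12.47, 12.55 and 12.52 with +/+;CrxpNrl, and 12.34, 12.38, 12.50 and 12.50 with Rorb-/-. At P28 it was 12.34, 12.35, 12.28 and 12.44 in +/+, 12.30, 12.34 and 12.36 in +/+;CrxpNrl, and 12.24, 12.30, 12.17 and 12.28 in Rorb-/-. The mice overlapped at both ages, with differences of -0.10 (95% interval -0.31 to 0.10) and -0.09 (-0.30 to 0.11), not called. The P14 signal of Ldhb was 10.46, 10.60, 10.64 and 10.56 with +/+, 10.53, 10.74, 10.55 and 10.52 with +/+;CrxpNrl, and 9.93, 10.28, 10.27 and 10.36 with Rorb-/-. It lay lower in every P14 rod-poor mouse, by -0.37 ± 0.10 (limma adjusted p = 0.00564). At P28 the Ldhb difference was -0.06 (-0.28 to 0.15). The P14 call of Ldhb was lost without Rorb-/- replicate 1 (adjusted p = 0.0545).

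Rorb-/- retinas with the transgene had more of 8 of 12 rod markers at P14 and of 5 at P28 (2 were called lower at P28, and without replicates 3 and 4, 9 were higher and 0 lower), and less of 11 of 11 cone markers at both ages. Among the enzymes, Hk2 was the one that fell at both ages. At P14 Hk2 and Eno2 fell (2 of 10, beside 3.25% of all genes) and none rose. At P28 Hk2 and Ldha fell (2 of 10, beside 7.47%) and Ldhb rose (1 of 10, beside 11.7%). Hk2 was the 1 enzyme with a called difference of at least 2-fold at each age, as were 0.907% of all genes at P14 and 1.42% at P28. All mice with the transgene lay below all mice without it in Hk2 and Eno2 at P14 (5.06% of all genes) and in Hk2 at P28 (6.59%), and above them in Hk1 at P14 (5.1%). This comparison uses the same Rorb-/- arrays as the rod contrast, so the values are given side by side and not set against each other. Of 9 ganglion cell markers 0 were called at P14, while at P28 8 were higher and 1 lower, with marker means of 8.91 to 9.97 in Rorb-/-;CrxpNrl against 8.72 to 9.05 in Rorb-/-; without replicates 3 and 4, 0 were higher and 1 was lower. Their part in the enzyme differences was not tested.

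Hk2 in Rorb-/-;CrxpNrl mice was 8.72, 7.94, 7.92 and 8.60 at P14 and 10.23, 9.85, 8.18 and 8.24 at P28. All but P28 replicates 1 and 2 lay below every mouse of the other genotypes, and these 2 lay within the range of P14 +/+. Against Rorb-/- the difference was -2.16 ± 0.32 at P14, 4.48-fold lower (limma adjusted p = 3.08e-05), and -2.26 ± 0.32 at P28, 4.80-fold lower (limma adjusted p = 8.56e-06). Without P28 replicates 3 and 4, a choice made after seeing the data, the P28 difference was -1.35 (limma adjusted p = 0.00105). In +/+ mice the transgene moved Hk2 by -0.23 (95% interval -0.88 to 0.43) at P14 and by 0.07 (-0.64 to 0.78) at P28. The effect in Rorb-/- minus that in +/+ was -1.94 ± 0.45 at P14 (limma interaction, adjusted p = 0.02) and -2.33 ± 0.47 at P28 (limma interaction, adjusted p = 0.00346). Hk2 was the 1 enzyme called in each of these tests, beside 1.47% and 5.47% of all genes.

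The P14 interaction of Hk2 lost its call without +/+ replicate 1 (adjusted p = 0.0545) or 2 (0.0626), +/+;CrxpNrl replicate 3 (0.0551), or Rorb-/-;CrxpNrl replicate 2 (0.0518) or 3 (0.0556). Without P28 Rorb-/-;CrxpNrl replicates 3 and 4 the P28 interaction was -1.42 (limma adjusted p = 0.0239). By group means Hk2 ran from P14 (8.30 ± 0.42, SD, n = 4) and P28 Rorb-/-;CrxpNrl (9.13 ± 1.07, n = 4) through the 3 other P14 groups (10.03 to 10.46) to the 3 other P28 groups (11.39 to 11.62). Only P14 and P28 Rorb-/-, neighbours in this order, were apart without overlap.

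**Figure D3:**
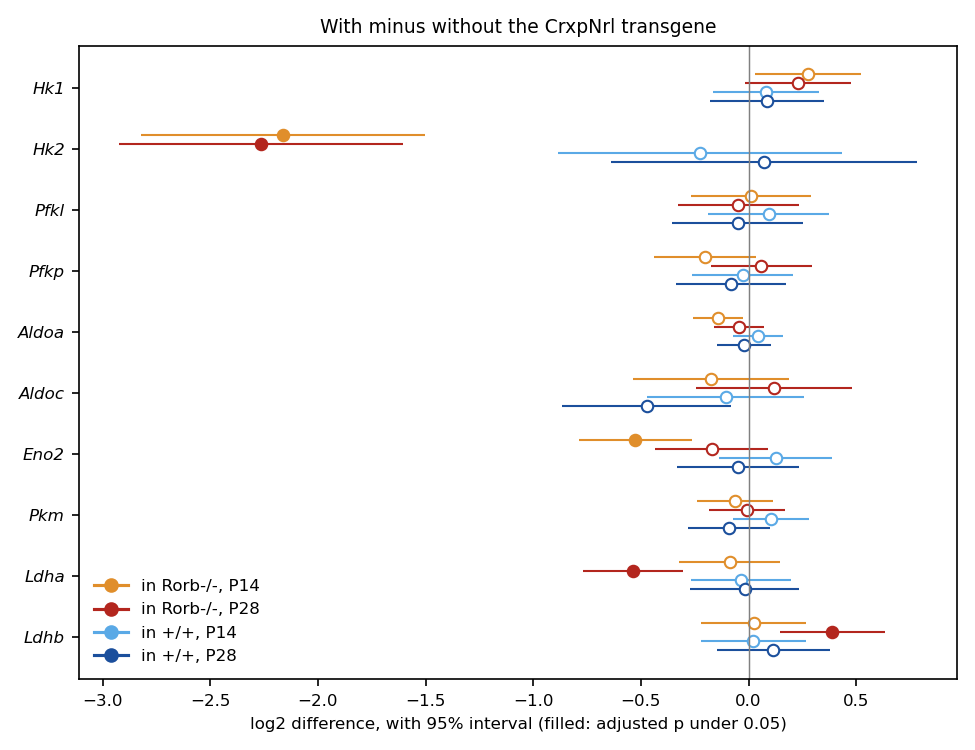
Log2 difference of each enzyme between mice with and without the CrxpNrl transgene, in Rorb-/- and in +/+ at P14 and P28, with 95% intervals; filled points have an adjusted p under 0.05. The 2 Hk2 values in Rorb-/- lie at -2.16 and -2.26, and no value in +/+ is filled.

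Of the other enzymes that were low in rod-poor retinas, Hk1, Pfkl, Pfkp, Aldoa and Pkm were not called higher with the transgene at either age. For Hk1 the difference was 0.27 (95% interval 0.03 to 0.52, limma adjusted p = 0.227) at P14 and 0.23 (-0.02 to 0.47, limma adjusted p = 0.206) at P28. Pfkl, Pfkp, Aldoa and Pkm ranged from -0.20 to 0.01 at P14 and from -0.05 to 0.06 at P28, and Pkm had intervals of -0.24 to 0.11 and -0.18 to 0.17. Eno2 at P14 was 11.27, 10.70, 11.03 and 11.18 with the transgene and 11.48, 11.51, 11.43 and 11.87 without it, a difference of -0.53 ± 0.13 (limma adjusted p = 0.0104). That call was lost without Rorb-/- replicate 4 or without Rorb-/-;CrxpNrl replicate 2 (adjusted p = 0.0646 each). Aldoa at P14, at -0.14, was called at -0.20 without Rorb-/- replicate 1 (adjusted p = 0.0278).

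Ldha and Ldhb moved in opposite directions at P28. With the transgene Ldha was 12.21, 11.94, 11.30 and 11.41 and Ldhb was 10.50, 11.06, 11.33 and 11.07, while without it Ldhb was 10.46, 10.62, 10.67 and 10.66. The mice overlapped in both genes. The difference was -0.54 ± 0.11 for Ldha (limma adjusted p = 0.001) and 0.39 ± 0.12 for Ldhb (limma adjusted p = 0.0193). Both differences were smaller without replicates 3 and 4, which stood apart in rod transcripts. Without them Ldha differed by -0.18 (limma adjusted p = 0.155) and Ldhb by 0.18 (limma adjusted p = 0.484), and Hk1 by 0.45 (limma adjusted p = 0.0278). Ldhb was lowest in replicate 1, at 10.50, and nearly alike in replicates 2 and 4, at 11.06 and 11.07. The transgene effect in Rorb-/- minus that in +/+ was -0.52 ± 0.17 for Ldha and 0.27 ± 0.18 for Ldhb (limma interaction, adjusted p = 0.0663 and 0.435). Ldha was called there without Rorb-/-;CrxpNrl replicate 1 (0.000974) or 2 (0.0303) and Ldhb without replicate 1 (0.0446), while without replicates 3 and 4 the interactions were -0.16 and 0.07 (adjusted p = 0.55 and 0.935). The call of Ldhb in Rorb-/- was also lost without Rorb-/- replicate 1 (adjusted p = 0.0694), Rorb-/-;CrxpNrl replicate 3 (0.126) or replicate 4 (0.0602).

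Replicates 3 and 4 of P28 Rorb-/-;CrxpNrl had less of transcripts that rods and cones share, and the genes shown here were chosen after their values were seen. The calcium sensor Rcvrn was 13.21, 13.03, 10.84 and 11.71, the chaperone Aipl1 12.66, 12.23, 10.15 and 10.67, and Tulp1 12.28, 11.84, 9.90 and 10.38 in replicates 1 to 4. In P28 Rorb-/- mice Aipl1 was 12.73 to 12.98. Relative to the P28 +/+ mean, Hk2 was at -1.33, -1.70, -3.37 and -3.31 and Ldha at -0.14, -0.41, -1.05 and -0.95, so both were lowest in the mice with the lowest photoreceptor transcripts. At P14, where Aipl1 was between -0.61 and -0.14 of the +/+ mean in all 4 mice, Hk2 was at -1.54, -2.31, -2.33 and -1.66. The rod marker means of these P14 mice were at -0.77, -1.46, -1.49 and -0.84 in the same order. Hk2 was lowest in P14 replicates 2 and 3, which had the lowest rod means, and so were Hk1, Pfkp, Aldoc, Eno2 and Pkm. Pfkl, Aldoa, Ldha and Ldhb did not share this order. At P28 Hk1, Pfkl, Pfkp and Aldoc were also lowest in replicates 3 and 4. P14 Rorb-/- mice had lower rod means still, 8.83 to 10.18, with Hk2 at 10.35 to 10.62. A link between rod transcripts and Hk2 was not tested.

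**Figure D4:**
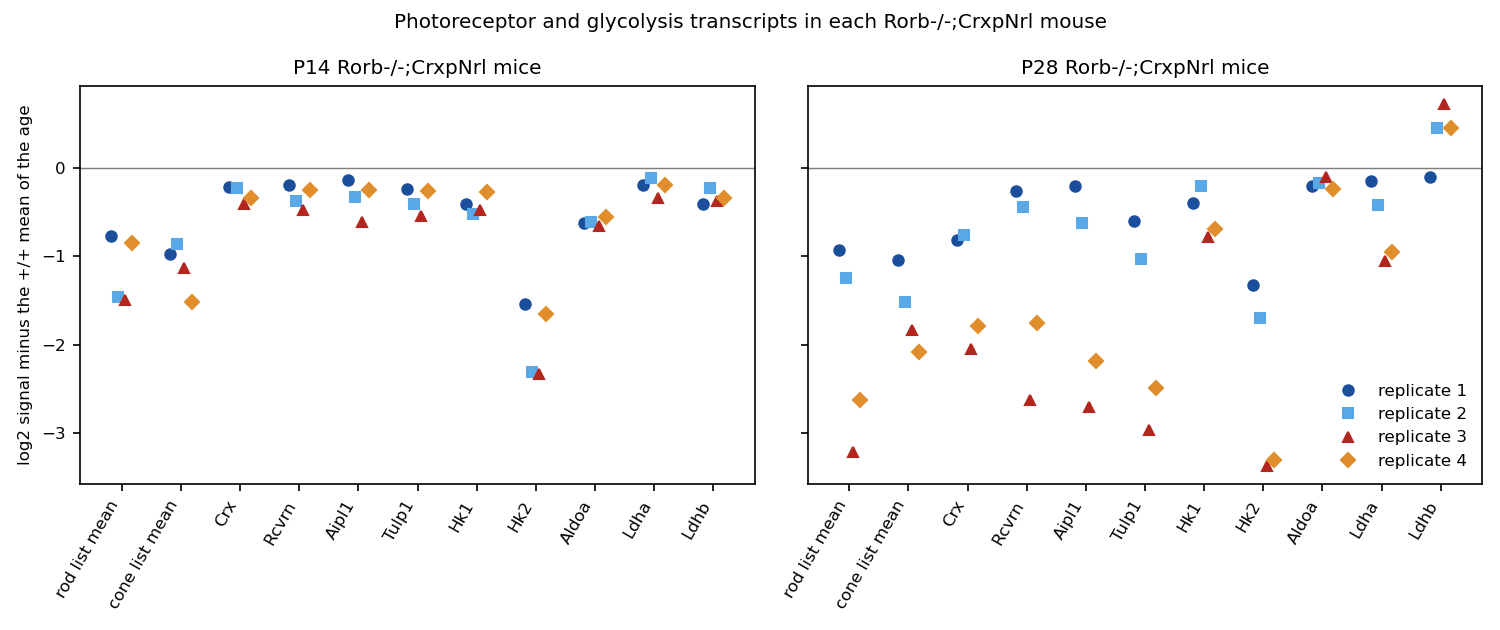
Log2 signal minus the +/+ mean of the same age for photoreceptor transcripts and 5 of the enzymes in each Rorb-/-;CrxpNrl mouse, P14 left and P28 right; each symbol is 1 mouse. At P28 replicates 3 and 4 lie lowest for Aipl1 (-2.71 and -2.18), Hk2 (-3.37 and -3.31) and Ldha (-1.05 and -0.95).

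In +/+ retinas, where the transgene went with the low cone means given above, limma called none of the 10 enzymes at either age, while 0.126% of all genes were called at P14 and 0.22% at P28. The largest difference of an enzyme there was that of Aldoc at P28, -0.47 (95% interval -0.87 to -0.08, limma adjusted p = 0.439). Its signal was 12.65, 11.97, 12.54 and 12.54 in +/+, and 11.95, 11.999 and 11.91 with the transgene. The intervals of Hk1, Pfkp, Aldoa and Pkm all lay within -0.34 and 0.35 at both ages. Those at P14 and P28 were -0.19 to 0.37 and -0.35 to 0.25 for Pfkl, and -0.22 to 0.26 and -0.15 to 0.38 for Ldhb. Some take in differences as large as those of the rod contrast. For Pkm at P28 the interval was -0.28 to 0.10, and the rod contrast was -0.26.

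Set against +/+, most of the enzymes were lower in Rorb-/-;CrxpNrl retinas. At P14, 6 of 10 fell, namely Hk1, Hk2, Pfkp, Aldoa, Pkm and Ldhb (13.3% of all genes were called lower), and in 5 of 10 all mice lay below all +/+ mice (13.2% of all genes). At P28, 7 of 10 fell, namely Hk1, Hk2, Pfkl, Pfkp, Aldoa, Pkm and Ldha (18.9% of all genes), the same 7 lay below all +/+ mice (16%), and Ldhb rose (21.1% of all genes were called higher). Hk2 differed by -1.96 ± 0.32 at P14 and -2.43 ± 0.32 at P28, 3.89-fold and 5.38-fold lower (limma adjusted p = 2.02e-05 and 4.28e-07). Aldoa fell by 0.61 ± 0.06 at P14 and by 0.17 ± 0.06 at P28 (limma adjusted p = 1.38e-09 and 0.0144). The P28 value of Aldoa was -0.09 and not called under quantile normalization (limma adjusted p = 0.243), and lost its call in a fit of these groups alone (0.0566). Pfkp fell by 0.74 ± 0.11 and 0.39 ± 0.11 (limma adjusted p = 8.69e-06 and 0.00766). The +/+ arrays also enter the rod contrast.

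Without P28 Rorb-/-;CrxpNrl replicates 3 and 4, 4 of 10 were called at P28, all lower. In that fit 14% of all genes were called lower and 15.9% higher. The 4 were Hk2 at -1.51, Ldha at -0.28, Pkm at -0.30 and Aldoa at -0.18, while Hk1 (-0.29), Pfkl (-0.24), Pfkp (-0.28) and Ldhb (0.17) were not called. Single mice also decided calls: Hk1 at P14 (adjusted p = 0.0507 without +/+ replicate 3) and Ldhb at P14 (0.0588 to 0.0822 without any 1 of +/+ replicates 2 to 4 or Rorb-/-;CrxpNrl replicates 1, 3 and 4). At P28 they were Pfkl (0.0757 without +/+ replicate 4, 0.0593 and 0.0742 without Rorb-/-;CrxpNrl replicates 3 and 4), Ldhb (0.0537 without +/+ replicate 1, 0.0745 without Rorb-/-;CrxpNrl replicate 3) and Aldoa (0.0522 without Rorb-/-;CrxpNrl replicate 4). At P14 Pfkl was gained without +/+ replicates 1 or 2 or Rorb-/-;CrxpNrl replicate 4 (0.00569, 0.0368 and 0.0277), Aldoc without +/+ replicate 1 or Rorb-/-;CrxpNrl replicate 1 (0.0156 and 0.0302), and Eno2 without +/+ replicate 2 or Rorb-/-;CrxpNrl replicate 1 (0.0459 and 0.0326).

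From P14 to P28 Hk2 was called higher in 3 of the 4 genotypes. Age changes were not tested between genotypes other than in the rod contrast above. In +/+ Hk2 rose 2.46-fold (1.30 ± 0.32, limma adjusted p = 0.00634) and was the 1 of 10 called (5.77% of all genes were called higher). In +/+;CrxpNrl it rose 3.02-fold (1.60 ± 0.35, limma adjusted p = 0.00283), again the 1 of 10 (2.65%). In Rorb-/- 4 of 10 rose (6.15%): Hk2 by 0.93 ± 0.32 (limma adjusted p = 0.0495), Aldoa by 0.39 ± 0.06 (1.45e-05), Ldhb by 0.39 ± 0.12 (0.0241) and Pkm by 0.25 ± 0.09 (0.0486). In Rorb-/-;CrxpNrl 6 of 10 rose (13.6%), namely Pfkp, Aldoa, Aldoc, Eno2, Pkm and Ldhb, and Ldha fell by 0.63 ± 0.11 (limma adjusted p = 0.000101, 15.3% of all genes called lower). The largest rises there were 0.77 ± 0.18 for Aldoc and 0.76 ± 0.12 for Ldhb (limma adjusted p = 0.00132 and 1.49e-05). Without P28 replicates 3 and 4 the fall of Ldha was -0.27 (limma adjusted p = 0.0102), and Eno2 was no longer called, at 0.35 (limma adjusted p = 0.104). Hk2 in Rorb-/-;CrxpNrl was at 0.83 ± 0.32 (limma adjusted p = 0.0527), and without P28 replicates 3 and 4 at 1.74 (limma adjusted p = 2.33e-05).

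In Rorb-/- the age calls of Hk2, Pkm and Ldhb rested on single mice. Hk2 lost its call without any 1 of the 8 mice (adjusted p of 0.0505 to 0.137). Pkm lost it without P14 replicates 1, 2 or 3 or P28 replicates 1, 3 or 4 (0.069 to 0.174), and Ldhb without P14 replicate 1 or P28 replicates 2, 3 or 4 (0.0502 to 0.119). Aldoa kept its call in each of these fits, and Aldoc gained one without P14 replicate 4 (0.0442) or P28 replicate 3 (0.0274). In +/+ Aldoc gained one without P28 replicate 2 (0.0222). The rise of Hk2 in Rorb-/-;CrxpNrl was called without P14 replicate 1 (0.0372) or 4 (0.0491), and without P28 replicate 3 (0.00767) or 4 (0.00969).

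Over the 8 group means, several enzymes of different steps moved together, given as a description over points that share the same arrays. Pearson's r was 0.98 for Pfkp and Pkm, 0.96 for Pfkp and Aldoa, 0.96 for Aldoa and Pkm, and 0.93 for Hk1 and Pfkl. Hk1 and Hk2 had r of 0.37, and Ldha and Ldhb -0.65. Among 2767 genes whose group means spanned at least 1 log2 unit, the 3 with the pattern most like Hk1 were Cyp4f41-ps, Cdan1 and Cdr2 (r of 0.99 each). For Pfkl they were Mbnl1, Pkp1 and Grm8 (r of 0.99 each), for Pfkp Zfp367, Lyrm9 and Cpne6 (0.99, 0.97 and 0.97), and for Pkm Zfp367, Abcb1a and Cds1 (0.98, 0.98 and 0.97). Hk2, which was added to this search after its values were seen, was most like Guca1a, Pla2g5 and Rnf144b (0.95, 0.91 and 0.90). The widest span of group means was that of Hk2, 3.33 log2 units against a mean within-group SD of 0.49. The narrowest was that of Pfkl, 0.45 against 0.21.

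Values of the enzymes rest on the brightest probe set of each gene. In the rod contrast 12 of 13 other probe sets of these genes had the same sign as the one used, at P14 and at P28, and the exception was a dim probe set of Aldoc. The 4 other probe sets of Aldoa gave -0.34 to -0.70 at P14. Aldoa was read by probes that can also match related transcripts. Hk2, Eno2, Pkm and Ldha have 1 probe set each, with no second reading.

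**Figure D5:**
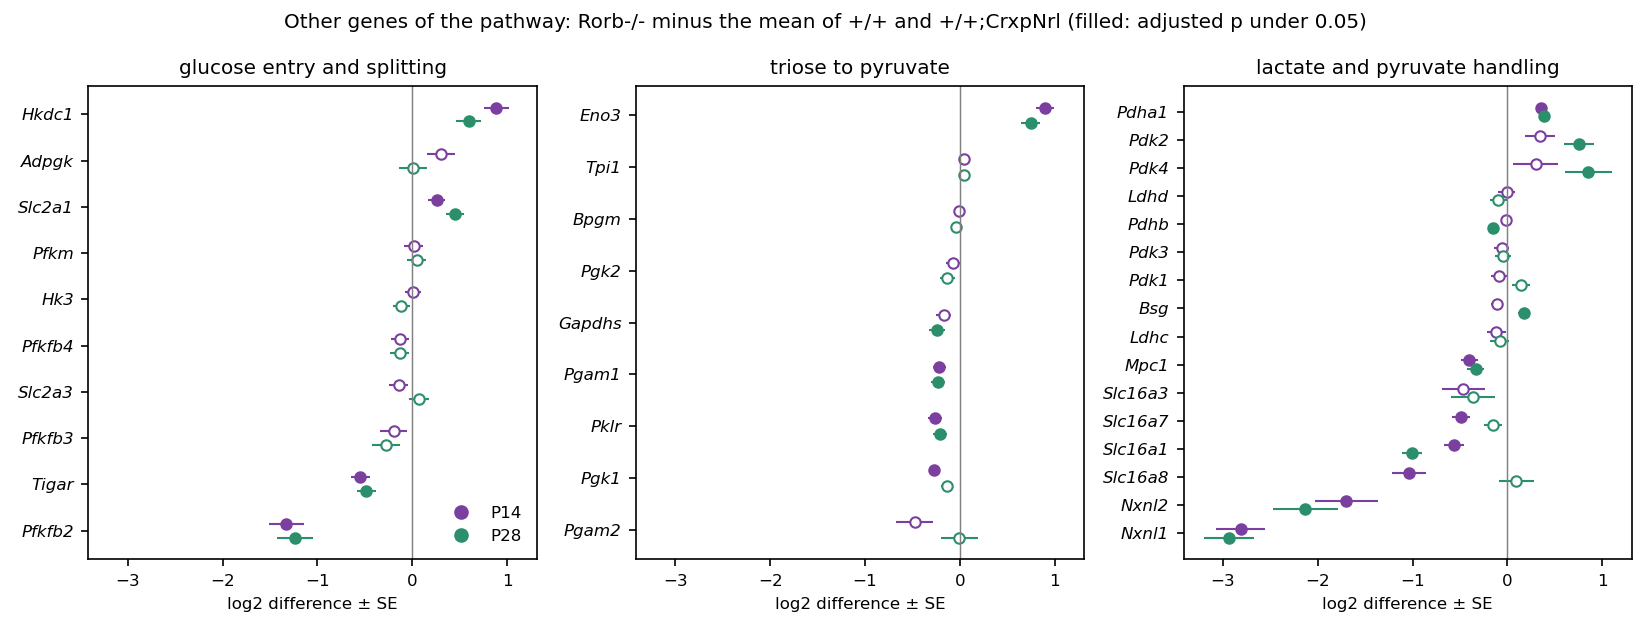
Log2 difference ± SE between rod-poor (Rorb-/-) and rod-rich retinas for other genes of glycolysis and of lactate and pyruvate handling, P14 and P28; filled points have an adjusted p under 0.05. Nxnl1 (-2.81 and -2.94), Nxnl2 and Pfkfb2 lie lowest, and Eno3 (0.90 and 0.75) and Hkdc1 lie highest.

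The rest of the pathway did not move one way in the rod contrast. Of 10 other genes of glucose entry and splitting, 2 rose and 2 fell at each age, beside 17.9% higher and 16.6% lower of all genes at P14 and 18.2% and 17% at P28. The 2 that rose at both ages were Slc2a1, the main glucose transporter of the retina, by 0.26 ± 0.09 and 0.45 ± 0.09 (limma adjusted p = 0.0234 and 0.000244), and Hkdc1, a hexokinase-like gene, by 0.89 ± 0.13 and 0.60 ± 0.13. Those that fell were Pfkfb2, an enzyme that sets the level of the phosphofructokinase activator fructose 2,6-bisphosphate, by 1.33 ± 0.19 and 1.24 ± 0.19 (limma adjusted p = 1.16e-06 and 5.07e-06), and Tigar. Of 9 genes from triose to pyruvate, Eno3, the muscle enolase, rose by 0.90 ± 0.09 and 0.75 ± 0.10 (limma adjusted p = 8.3e-09 and 3.43e-07). Pgam1 and Pklr fell at both ages, with Pgk1 at P14, by up to 0.27. Tigar, Pgam1, Pklr and Pgk1 were named after their values were seen.

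Of 16 genes of lactate and pyruvate handling, 1 rose and 6 fell at P14, and 4 rose and 5 fell at P28, beside the shares of all genes just given. The largest falls were in Nxnl1 and Nxnl2, which encode rod-derived cone viability factors; the Nxnl1 product acts on cones through basigin and glucose uptake. Nxnl1 differed by -2.81 ± 0.26 and -2.94 ± 0.26 (limma adjusted p = 5.33e-10 and 3.38e-10), from 9.61 to 6.79 at P14 and from 9.94 to 7.01 at P28. Nxnl2 differed by -1.70 ± 0.33 and -2.13 ± 0.34 (limma adjusted p = 0.000144 and 9.44e-06). Slc16a1, a lactate transporter, fell by 0.57 ± 0.10 and 1.004 ± 0.11 (limma adjusted p = 5.8e-05 and 7.46e-09). Slc16a8, the lactate transporter of the pigment epithelium, fell by 1.04 ± 0.18 at P14 and differed by 0.09 ± 0.18 at P28. The pigment epithelium markers were also lower at P14 only, and their part in the Slc16a8 difference was not tested. Bsg, basigin, the partner of these transporters, differed by -0.11 ± 0.06 (limma adjusted p = 0.164) at P14 and by 0.17 ± 0.06 at P28 (limma adjusted p = 0.0309). At P28 Bsg was 11.94 to 12.16 in Rorb-/- and 11.94 to 12.12 in +/+, which overlapped, and 11.68 to 11.81 in +/+;CrxpNrl, below both.

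With the transgene in Rorb-/-, Slc16a1 fell further, by 0.66 ± 0.12 at P14 and 0.56 ± 0.12 at P28 (limma adjusted p = 0.000452 and 0.00103). Eno3 fell by 0.54 ± 0.11 and 1.13 ± 0.11 (limma adjusted p = 0.00164 and 1.09e-08). Nxnl2 differed by 0.63 ± 0.38 and -0.60 ± 0.38 (limma adjusted p = 0.439 and 0.321). Nxnl1 differed by 0.81 ± 0.30 and -0.08 ± 0.30 and Pfkfb2 by 0.39 ± 0.21 and -0.32 ± 0.21, none of them called (limma adjusted p = 0.125, 0.905, 0.381 and 0.361). The P28 signs of these last 3 genes were those of Rorb-/-;CrxpNrl replicates 3 and 4: without them Nxnl2 differed by 0.66 (limma adjusted p = 0.0171), Nxnl1 by 0.72 (0.091) and Pfkfb2 by 0.35 (0.118). Without them Slc16a1 was at -0.33 and no longer called (0.0827), and Eno3 at -0.997 (4.75e-06).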

How the data were processed

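Total RNA (5 ug) of the 2 retinas of 1 mouse was labelled for 1 Affymetrix array per mouse, per the labels' protocols. The authors deposited log2 signals for each probe set. The submitters' processing notes name RMA, without a version, and the values were used as they stand. Medians of the arrays ran from 5.84 to 5.91, and correlations between pairs of arrays from 0.961 to 0.995. Precision is limited by how many arrays each group has.

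Of 45101 probe sets, 34958 have 1 gene symbol, 932 several and 9211 none in the platform annotation. Leaving out 13 control probe sets with a symbol, 34945 remained, and each of 18193 genes was represented by its brightest probe set on average. One limma fit (limma 3.58.1, R 4.3.3, trended prior variance) over all 31 arrays with a mean per group gave 12 comparisons and 3 interactions. A gene is called at Benjamini-Hochberg adjusted p under 0.05 over all genes, with any fold; intervals are 95%. The code was tested on simulated data.

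The enzymes, gene lists and comparisons were chosen with earlier results of these data known, and the pathway lists were taken from textbook knowledge. The text names all 10 enzymes, Rorb and Nrl, the 8 other pathway genes with the largest called rod contrast, and Slc2a1, Nxnl1 and Bsg. It adds, for each enzyme called one way at both ages, the 3 genes of most like pattern.

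Replicate numbers came from the labels. Same-numbered mice deviated together (correlations over 0.1 in every pair) between P14 Rorb-/- and +/+ (0.112 to 0.294), P28 +/+ and +/+;CrxpNrl (0.212 to 0.37) and the ages of +/+;CrxpNrl (0.228 to 0.302) only. The labels do not say that a number marks a shared litter. Scan dates or batches are not given in the sources used here.

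Alternatives covered the probe set of a gene, dim genes, normalization, prior, array weights, replicate block, groups in the fit, fold, the genotypes taken as rod-rich, and each mouse left out in turn.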

Additional observations from a re-analysis of the deposited data

Results flagged for a closer look

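The 10 enzymes in the groups of 4 mice make 70 sets of values; 5 had 1 mouse far from the others, and chance alone marks about 1 in 20 such sets. Hk1 was lowest in P28 Rorb-/- replicate 1 (10.50, the next mouse at 10.64). Pfkl was highest in P28 Rorb-/- replicate 2 (10.41, the next at 10.34), and Aldoa was lowest in P14 Rorb-/- replicate 1 (12.32, the next at 12.55). Aldoc was lowest in P28 +/+ replicate 2 (11.97, the next at 12.54), and Ldhb was highest in P14 +/+;CrxpNrl replicate 2 (10.74, the next at 10.55).

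The same contrast gave different values in different groups for Aldoa and Hk2. The rod-poor minus rod-rich difference of Aldoa changed between P14 and P28 by 0.37 ± 0.07 (limma interaction, adjusted p = 0.00207). For Hk2 the effect of the transgene in Rorb-/- minus that in +/+ was -1.94 ± 0.45 at P14 and -2.33 ± 0.47 at P28 (limma interaction, adjusted p = 0.02 and 0.00346).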

How the results depend on the processing

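Counts of enzymes called kept within 1.5 times the main count except as follows. Averaging each gene's probe sets gave 2 for age in Rorb-/- (main 4) and 2 for the transgene interaction at P28 (main 1). Without probe sets of suffix _s_at, _x_at or _a_at, 5 of the enzymes are measured. The rod contrast then had 3 and 2 at P14 and P28 (main 6 and 4). The transgene in Rorb-/- had 1 at P14 (main 2), and Rorb-/-;CrxpNrl against +/+ had 5 at P28 (main 8). Age in Rorb-/- and in Rorb-/-;CrxpNrl had 0 and 3 (main 4 and 7). The interaction with age had 0 (main 1) and the transgene interaction at P28 had 2. Under this setting Aldoc in Rorb-/-;CrxpNrl against +/+ at P28 turned from -0.15 to 0.69 (limma adjusted p = 0.000299), read from the dim probe set. Pfkl was also read there from its dimmest probe set, with a mean of 6.73. Leaving out the dimmest 40% of genes gave 2 for the transgene interaction at P28, and a prior without trend 2 for age in Rorb-/-. Array weights gave 10 for Rorb-/-;CrxpNrl against +/+ at P14 (main 6) and 2 for the transgene interaction at each age. A fit of the compared groups alone gave 1 for the transgene in Rorb-/- at each age (main 2 and 3) and 2 for age in +/+;CrxpNrl (main 1). Requiring at least 2-fold gave 0 for the rod contrast at both ages, 1 for the transgene in Rorb-/- and 1 for Rorb-/-;CrxpNrl against +/+ at each age, and 0 for age in Rorb-/- and Rorb-/-;CrxpNrl and for the interaction with age. Counting Rorb-/-;CrxpNrl as rod-rich too gave 2 for the rod contrast at P28 and 0 for the interaction with age; Aldoa lost that interaction's call. With P28 Rorb-/-;CrxpNrl replicates 3 and 4 left out, an alternative added after seeing the data, Rorb-/-;CrxpNrl against +/+ at P28 had 4. The suffix setting left fewer enzymes measured, and the fold setting can only lower a count. Under the suffix setting Hk2 and Pkm kept their values for age in Rorb-/- but not their calls (limma adjusted p = 0.0529 and 0.0534). What else moved the counts was not tested. Shares of all genes called are not set beside the counts of this section. The counts alone therefore say nothing particular to the enzymes.

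With each mouse left out in turn, the counts ran from 5 to 6 and from 2 to 5 for the rod contrast at P14 and P28, 1 to 3 and 2 to 3 for the transgene in Rorb-/-, 0 to 0 at both ages for the transgene in +/+, and 4 to 8 and 6 to 8 for Rorb-/-;CrxpNrl against +/+. For age they ran from 1 to 2 in +/+, 1 to 4 in Rorb-/-, 1 to 1 in +/+;CrxpNrl and 7 to 8 in Rorb-/-;CrxpNrl. For the interactions they were 1 to 1 (age), and 0 to 2 and 1 to 3 (transgene at P14 and P28).

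With the replicate number as a block, age in +/+ had 2 calls (main 1) and the transgene interaction at P14 had 2 (main 1). The block changed no other count by over 1.5 times; it changed no call in the transgene effect in +/+ at P28 or the age change in +/+;CrxpNrl, whose groups were paired by the check. In the P14 interaction, of whose groups only Rorb-/- and +/+ were paired, Eno2 was gained (-0.65, limma adjusted p = 0.00207, against 0.0721 without the block), and in the rod contrast at P28 it was gained at 0.24 (0.0138). Quantile normalization and a common median moved no count by over 1.5 times, though single enzymes lost or gained calls.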

Other observations

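Of 12 measured genes of the citric acid cycle, which burns pyruvate in mitochondria, 4 rose and 1 fell in rod-poor against rod-rich retinas at P14, and 5 rose and 0 fell at P28, by limma over all genes. Of all genes 17.9% were called higher and 16.6% lower at P14, and 18.2% and 17% at P28. Idh3a and Idh3g, subunits of the isocitrate dehydrogenase of the cycle, differed by 0.37 ± 0.06 and 0.31 ± 0.05 at P14 and by 0.29 ± 0.06 and 0.26 ± 0.05 at P28. Fh1 and Suclg1 also rose at both ages, Sdhb rose at P28, and Sucla2 fell at P14 by 0.13 ± 0.05. The median difference of the 12 was 0.06 at P14 and 0.02 at P28, close to that of all genes. Pdha1, a subunit of the pyruvate dehydrogenase that feeds the cycle, rose by 0.36 ± 0.06 and 0.39 ± 0.06. All of these genes were named after their values were seen.

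Among 7 regulators of glycolysis genes, the hypoxia-inducible factors Hif1a and Epas1 were lower in rod-poor retinas. Hif1a differed by -0.52 ± 0.06 at P14 and -0.56 ± 0.06 at P28 (limma adjusted p = 1.38e-08 and 5.05e-09), and Epas1 by -0.99 ± 0.17 and -0.74 ± 0.17 (limma adjusted p = 2.51e-05 and 0.00124). Vhl, which marks these factors for decay, rose by 0.26 ± 0.07 and 0.28 ± 0.07. Egln3, an oxygen-sensing hydroxylase, rose at P28 by 0.43 ± 0.10. Hif1a, Vhl and Egln3 were named after their values were seen. Of 8 blood vessel markers 5 were lower and 2 higher at P14, with means of 6.75 to 7.27 in Rorb-/- against 7.50 to 7.81, and 4 were lower and 3 higher at P28, with overlapping means of 6.85 to 7.05 against 6.90 to 7.03. Their part in the Epas1 difference was not tested.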
